A study of Mus musculus with 12 samples.

Results

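The cell division and DNA replication genes are 44 genes whose products copy the genome and separate its copies at mitosis. They were taken by gene symbol for their known function, with no threshold on their levels or differences, and each symbol was matched to its Ensembl identifier in the TPM table of 48623 genes, the identifier with the highest mean TPM being used where a symbol had several. All 44 were found. The libraries came from primary microglia, the resident macrophages of the brain, grown from cortices and hippocampi of newborn pups aged 1 to 3 days on the C57BL/6J background. The WT cultures T13, T33 and T43 were compared with cultures T15, T22 and T32 of the homozygous *Trem2* R47H knock-in genotype (KI). Cells of every culture were either left untreated or kept for 48 h in 20 ng/ml of interleukin-4 (IL-4), which gave 12 libraries in 4 groups of 3. The study describes the sequenced cells as coming from KI mice and WT littermates, and microglia were purified from mixed glia by mild trypsinization. The knock-in is known to lower *Trem2* in mice through a splicing effect, so it models loss of expression as well as the altered protein.

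A dividing cell loads the MCM helicase onto its replication origins, supplies itself with deoxynucleotides, copies its DNA with PCNA as the sliding clamp, and then builds a spindle whose attachments are watched by a checkpoint until the anaphase-promoting complex is released. Genes for the replication steps are commonly driven by E2F factors at the entry to S phase, and genes for mitosis by B-Myb and FoxM1 later in the cycle. Microglia renew themselves slowly in the adult brain, and in culture they divide in response to colony-stimulating factors made by the astrocyte layer. IL-4 is a cytokine that drives macrophages towards alternative activation.

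The genotype labels were first checked in the libraries. Untreated WT libraries held 1328 to 1886 TPM of *Trem2* and untreated KI libraries 324.6 to 769.9 TPM, without overlap. All 12 microglial markers were above 0 in every library, and their summed level was 23700.0 to 31520.0 TPM in WT and 10500.0 to 24520.0 TPM in KI libraries. KI culture T15 stood apart with 4631.0 TPM of summed astrocyte markers untreated and 3494.0 TPM with IL-4, against 160.1 to 661.4 TPM in the other libraries. Summed fibroblast and mural markers were 141.9 to 616.6 TPM in WT and 703.6 to 1327.0 TPM in KI libraries, and oligodendrocyte lineage markers 34.7 to 94.91 TPM in WT and 96.03 to 459.9 TPM in KI libraries. Neuronal markers reached 38.4 TPM, with *Syt1* listed at 0 throughout, and endothelial markers 10.0 TPM, with *Cldn5* and *Tek* listed at 0 throughout. A few genes carried these sums: *Acta2*, *Tagln* and *Olig1* were called higher in KI (limma adjusted p of 0.00296, 0.00626 and 0.0438), while *Col1a1*, *Col1a2* and *Col3a1* were not called and were highest in WT culture T43 with IL-4. The part of these markers in the results for the cell division genes was not tested. In bulk RNA, fewer dividing cells and less RNA per dividing cell cannot be told apart.

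Most cell division genes were expressed at low levels in these cultures. TPM is scaled for transcript length, so levels can be set side by side between genes. *Pcna*, the sliding clamp of the replication fork, was the 1 member with a mean above 100 TPM, 13 members had a mean above 10 TPM, 25 lay between 1 and 10 TPM, and 6 were below 1 TPM. The median of the members' mean levels was 4.73 TPM. On the log2(TPM + 1) scale 34 members had a mean above 1.5 and were tested, with a median level of 7.04 TPM against 18 TPM for the 11204 genes tested in all. *Foxm1* at 1.52 and *Uhrf1* at 1.56 lay just inside that limit, and *Plk1* at 1.46 and *Kif20a* at 1.44 just outside it. The 10 members below it had means of 0.802 to 2.78 TPM and a highest single value of 12.2 TPM. They entered only the alternative fit with no expression filter, so members called not tested below were outside the reported fit. Of the 528 values, 23 were listed at 0, and 31 of the 44 members were above 0 in every library. The study's methods give a nominal sequencing depth, but the reads behind each library and value cannot be recovered from TPM.

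**Figure D1:**
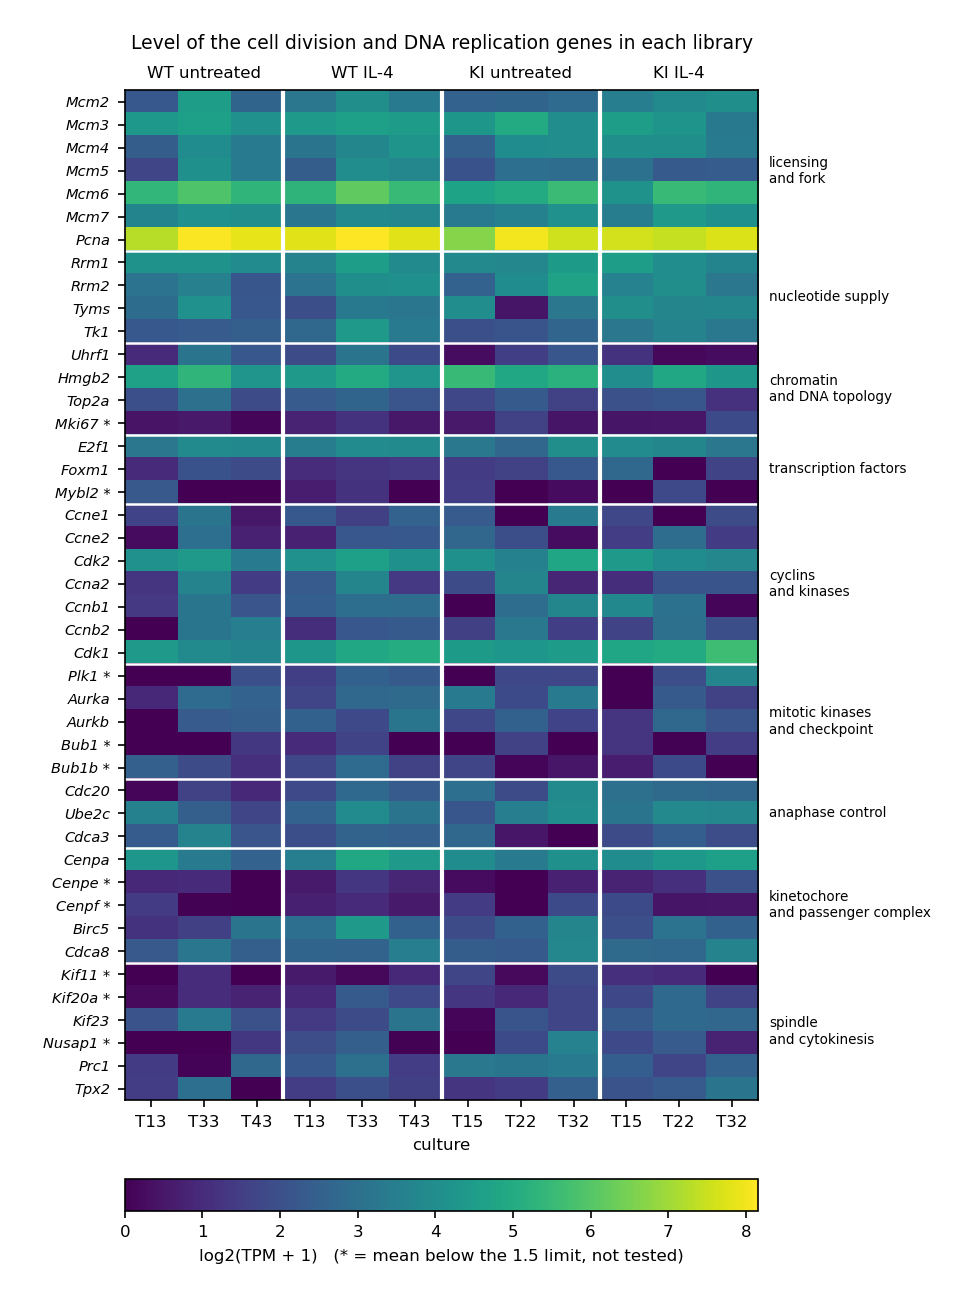
Level of each of the 44 members (vertical axis, grouped by role) in each of the 12 libraries (horizontal axis, by culture), with the colour giving log2(TPM + 1) from 0 to 8. *Pcna*, *Mcm6*, *Hmgb2* and *Cdk1* form the brightest lines, the asterisks mark the 10 members that were not tested, and no block of genes is brighter or darker in 1 of the 4 groups as a whole.

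No cell division gene passed the threshold of limma's moderated test for genotype, for IL-4 or for their interaction. The background for genotype was 1.65% of all genes tested (185 genes, 145 higher and 40 lower in KI), for IL-4 0.893% (100 genes, 84 higher and 16 lower), and for the interaction 0.0%, so at the rates of the whole table few or no members would have passed. With culture as replicate block these counts over all genes were 77, 240 and 0, and with quantile normalization the genotype calls split into 90 higher and 56 lower, while 0 members passed in either. The genotype count also fell to 3 without culture T33 and 16 without T43 and rose to 575 when genotype was tested without the interaction, again with 0 members. At an unadjusted p under 0.05, 2 of the 34 members passed for genotype (*Cdc20* and *Prc1*, 5.88%) against 16.1% of all genes, 2 passed for IL-4 (*Tk1* and *Cdk1*, 5.88%) against 7.27%, and none passed for the interaction against 3.19%. The p of a main effect is from its test together with the interaction, so it can be under 0.05 where the interval of the averaged difference holds 0, and the reverse. The median difference between KI and WT over the members was -0.00785 on the log2 scale, with 15 above and 19 below 0, beside 0.129 over all genes, of which 63.1% were above 0. With IL-4 it was 0.231, with 23 members above and 11 below 0, beside 0.0431 over all genes, of which 55.8% were above 0.

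These numbers do not show that the members were equal between the groups. On the log2(TPM + 1) scale the 95% interval lay within 1 unit on either side of 0 for 13 of 34 members for genotype (38.2%, against 55.4% of all genes). It did so for 8 for IL-4 (23.5%, against 60.8%) and for 2 for the interaction (5.88%, against 20.5%). Because 1 is added to TPM, 1 unit is more than a doubling or halving of TPM, most so at low levels. The SD between libraries of a group had a median of 0.752 over the members and of 0.469 over all genes on the log2 scale. Among the 17 members of lower level it was 0.878, beside 0.809 for the 2802 genes at the same level.

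The 6 members closest to the threshold for genotype or IL-4 were *Cdc20* (4:118432901-118437352, minus strand), *Prc1* (7:80294450-80316259, plus strand), *Uhrf1* (17:56303321-56323486, plus strand), *Cdca3* (6:124829547-124833701, plus strand), *Tk1* (11:117815526-117826092, minus strand) and *Cdk1* (10:69335146-69352938, minus strand) on GRCm38. Their promoters are printed because these genes had the smallest unadjusted p, although none passed the threshold. The promoters were searched for the elements for which cell cycle genes are known. The 150 bases before each RefSeq start are from RefSeq's annotation on GRCm38.p6, at chr4:118437344-118437493 on the minus strand for *Cdc20*, chr7:80294301-80294450 on the plus strand for *Prc1*, chr17:56303187-56303336 on the plus strand for *Uhrf1*, chr6:124830026-124830175 on the plus strand for *Cdca3*, chr11:117826015-117826164 on the minus strand for *Tk1* and chr10:69352913-69353062 on the minus strand for *Cdk1*. Capitals mark the CCAAT box, the cell cycle homology region (CHR, TTTGAA) and an E2F element (TTTCCCGC, TTTGGCGC, TTTCGCGC or TTTGCCGC), each on either strand, and an element that runs across the start is shown up to the last base before it:
Cdc20: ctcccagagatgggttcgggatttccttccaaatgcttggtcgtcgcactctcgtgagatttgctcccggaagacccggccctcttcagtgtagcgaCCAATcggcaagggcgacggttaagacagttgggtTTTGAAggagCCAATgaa
Prc1: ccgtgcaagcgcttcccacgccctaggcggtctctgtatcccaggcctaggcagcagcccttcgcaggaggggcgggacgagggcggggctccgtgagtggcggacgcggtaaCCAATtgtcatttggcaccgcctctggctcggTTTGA
Uhrf1: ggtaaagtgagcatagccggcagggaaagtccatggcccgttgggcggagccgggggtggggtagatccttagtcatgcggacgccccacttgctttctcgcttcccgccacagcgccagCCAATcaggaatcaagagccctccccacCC
Cdca3: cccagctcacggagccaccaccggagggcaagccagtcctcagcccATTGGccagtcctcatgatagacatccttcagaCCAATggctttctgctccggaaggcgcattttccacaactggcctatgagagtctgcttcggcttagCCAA
Tk1: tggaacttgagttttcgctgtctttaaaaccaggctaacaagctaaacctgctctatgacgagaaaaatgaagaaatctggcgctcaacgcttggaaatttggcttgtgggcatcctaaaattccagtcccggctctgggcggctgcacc
Cdk1: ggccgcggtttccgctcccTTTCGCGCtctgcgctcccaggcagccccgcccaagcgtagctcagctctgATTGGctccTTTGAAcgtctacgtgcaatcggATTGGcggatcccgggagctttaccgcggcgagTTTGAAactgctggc

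In *Cdc20* a CHR lay 18 to 13 bases before the start between CCAAT boxes at 53 to 49 and 8 to 4 bases before it. *Cdk1* held a CHR at 71 to 66 and another at 15 to 10 bases before its start, CCAAT boxes on the other strand at 80 to 76 and 48 to 44, and an E2F element at 131 to 124. The CHR of *Prc1* crossed its start, that of *Cdca3* lay 31 to 36 bases after it, outside the stretch printed, *Uhrf1* held CCAAT boxes without a CHR, and none of these letters occurred in the stretch of *Tk1*. Windows of 300 bases, from 250 before to 50 after the start, were at hand for 37 of the 44 members. A CCAAT box was in 30 of them (81.1%, against 37.9% of 27025 promoters and 39.1% of the 8510 of tested genes) and a CHR in 18 (48.6%, against 18.1% and 11.7%), and these 18 also held a CCAAT box (against 7.12% and 4.97%). An E2F element was in 6 (16.2%, against 2.32% and 4.1%), namely *Mcm3*, *Mcm5*, *Mcm6*, *Mcm7*, *Cdk2* and *Cdk1*. The RefSeq start is that of 1 transcript, whereas the gene spans above cover all annotated transcripts, so the *Cdca3* stretch lies inside the span of its gene and the others overlap the end of theirs. The matches describe letters and are not evidence of binding in these cells.

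The licensing and fork genes include *Pcna* and *Mcm6*, the most abundant members, and all 7 were tested without a call. Values follow in TPM, for WT cultures in the order T13, T33 and T43 and for KI cultures in the order T15, T22 and T32. *Pcna* was at 155.7, 277.2 and 230.0 in untreated WT, 220.4, 286 and 219.5 in WT with IL-4, 101, 259 and 188 in untreated KI, and 195, 172 and 211 in KI with IL-4. With IL-4 every KI library lay below every WT library, whereas the untreated libraries overlapped. The log2 difference between KI and WT was -0.33 (95% interval -0.773 to 0.115, limma adjusted p = 0.665), and it was -0.15 without KI culture T15 and -0.17 without WT culture T33.

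*Mcm6*, a subunit of the helicase, was the second most abundant at 40.9, 59.9 and 39.8 in untreated WT, 38.6, 71.7 and 45.6 in WT with IL-4, 25.9, 31 and 46.6 in untreated KI, and 17.5, 44 and 39.4 in KI with IL-4. WT culture T33 was highest in both treatments, and the genotypes overlapped. The genotype difference was -0.56 (SE 0.252, 95% interval -1.10 to -0.0165, limma adjusted p = 0.448). It was -0.27 without KI culture T15 and -0.34 without WT culture T33.

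*Mcm2* was at 3.75, 23 and 5.24 in untreated WT and 8.35, 15.3 and 9.06 with IL-4, and at 4.96, 5.16 and 6.16 in untreated KI and 10.3, 13.6 and 15.9 with IL-4. It was higher with IL-4 in 5 of 6 cultures, T33 being the exception, where the untreated library held the highest value of the 12. The IL-4 difference was 0.75 (95% interval -0.0531 to 1.56, limma adjusted p = 0.854). *Mcm5* was at 2.24, 16 and 9.05 in untreated WT, 4.33, 14.9 and 12.7 in WT with IL-4, 3.12, 6.9 and 6.5 in untreated KI, and 7.33, 3.99 and 4.23 in KI with IL-4. Its lowest and highest untreated values were both from WT cultures, and its genotype difference was -0.60 (95% interval -1.54 to 0.337, limma adjusted p = 0.713). *Mcm3*, *Mcm4* and *Mcm7*, further helicase subunits, ranged from 8.883 to 30.850, from 4.262 to 17.780 and from 8.208 to 20.140 TPM, with genotype differences of -0.21, 0.19 and 0.07.

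Of the 4 genes of nucleotide supply, *Tk1* was the member closest to the threshold for IL-4. It encodes the thymidine kinase that recycles thymidine for DNA synthesis. *Tk1* was at 3.78, 4.02 and 4.53 in untreated WT and 5.63, 20.2 and 9.13 in WT with IL-4, and at 3.01, 3.31 and 5.32 in untreated KI and 8.48, 11.5 and 8.54 in KI with IL-4. Every IL-4 library lay above every untreated library, the closest being T13 with IL-4 (5.63) and untreated T32 (5.32). The share of all genes separated in this way was not counted. *Tk1* alone among the 34 exceeded its untreated value in each of the 6 cultures, as did 5.73% of all genes. The IL-4 difference was 1.13 (SE 0.326, 95% interval 0.434 to 1.83), and the test together with the interaction gave an unadjusted p of 0.013 and a limma adjusted p of 0.380. It was 1.14 within the WT cultures and 1.13 within the KI cultures, and it was lowest, at 0.90, without culture T33, whose IL-4 library held the highest value.

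*Rrm2*, the regulated subunit of ribonucleotide reductase, was at 7.57, 10.8 and 3.53 in untreated WT, 7.72, 15.6 and 16.2 in WT with IL-4, 4.89, 14.7 and 24.9 in untreated KI, and 11.3, 15.3 and 8.4 in KI with IL-4. It was higher with IL-4 in 5 of 6 cultures and lower in T32, whose untreated library was the highest of all. *Tyms*, which makes thymidylate, was at 6.36, 16.6 and 3.61 in untreated WT, 2.89, 8.88 and 8.28 in WT with IL-4, 15, 0.378 and 8.39 in untreated KI, and 15.3, 12 and 12.5 in KI with IL-4. With IL-4 every KI library lay above every WT library, while the untreated libraries overlapped and culture T22 was far below the others. The averaged genotype difference of *Tyms* was 0.25 (95% interval -0.929 to 1.42, limma adjusted p = 0.714). *Rrm1*, the partner subunit of the reductase, stayed between 11.480 and 23.100 TPM, with differences of -0.01 for genotype (95% interval -0.545 to 0.522) and of 0.00 for IL-4 (-0.538 to 0.529), among the narrowest intervals of the list.

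Among the chromatin and DNA topology genes, *Uhrf1* had the most negative genotype difference of all members tested. Its product brings the maintenance DNA methyltransferase to newly copied DNA. *Uhrf1* was at 1, 7.79 and 3.61 in untreated WT, 2.64, 7.88 and 2.53 in WT with IL-4, 0.2, 1.86 and 3.59 in untreated KI, and 1.28, 0.117 and 0.204 in KI with IL-4. All 3 KI libraries with IL-4 lay below all 3 WT libraries with IL-4, and the untreated libraries overlapped. The genotype difference was -1.26 (SE 0.501, 95% interval -2.34 to -0.187, limma adjusted p = 0.322), and it was -0.79 without culture T33, whose libraries were the highest. With 0.1 instead of 1 added to TPM the difference was -2.2.

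*Hmgb2*, a DNA-bending chromatin protein, was at 24.6, 39.7 and 18 in untreated WT, 19.7, 30.8 and 18.3 in WT with IL-4, 43.8, 28.5 and 35.7 in untreated KI, and 14.9, 28.1 and 18.9 in KI with IL-4. It was lower with IL-4 in 5 of 6 cultures, the opposite direction to most members. The IL-4 difference was -0.51 (SE 0.241, 95% interval -1.02 to 0.0128, limma adjusted p = 0.793). *Top2a*, the topoisomerase that untangles sister chromatids, was at 2.97, 7.05 and 2.75 in untreated WT, 4.02, 5.22 and 3.43 in WT with IL-4, 2.37, 3.92 and 2.04 in untreated KI, and 3.06, 3.53 and 1.25 in KI with IL-4. The groups overlapped, and the genotype difference was -0.50 (95% interval -1.27 to 0.270, limma adjusted p = 0.728). *Mki67*, the proliferation marker Ki-67, was below the limit of the reported fit: 0.357, 0.474 and 0.0735 in untreated WT, 0.756, 1.31 and 0.439 in WT with IL-4, 0.481, 1.97 and 0.387 in untreated KI, and 0.385, 0.404 and 2.59 in KI with IL-4. Its highest value in each treatment was from a KI culture, but from a different one, and the groups overlapped.

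**Figure D2:**
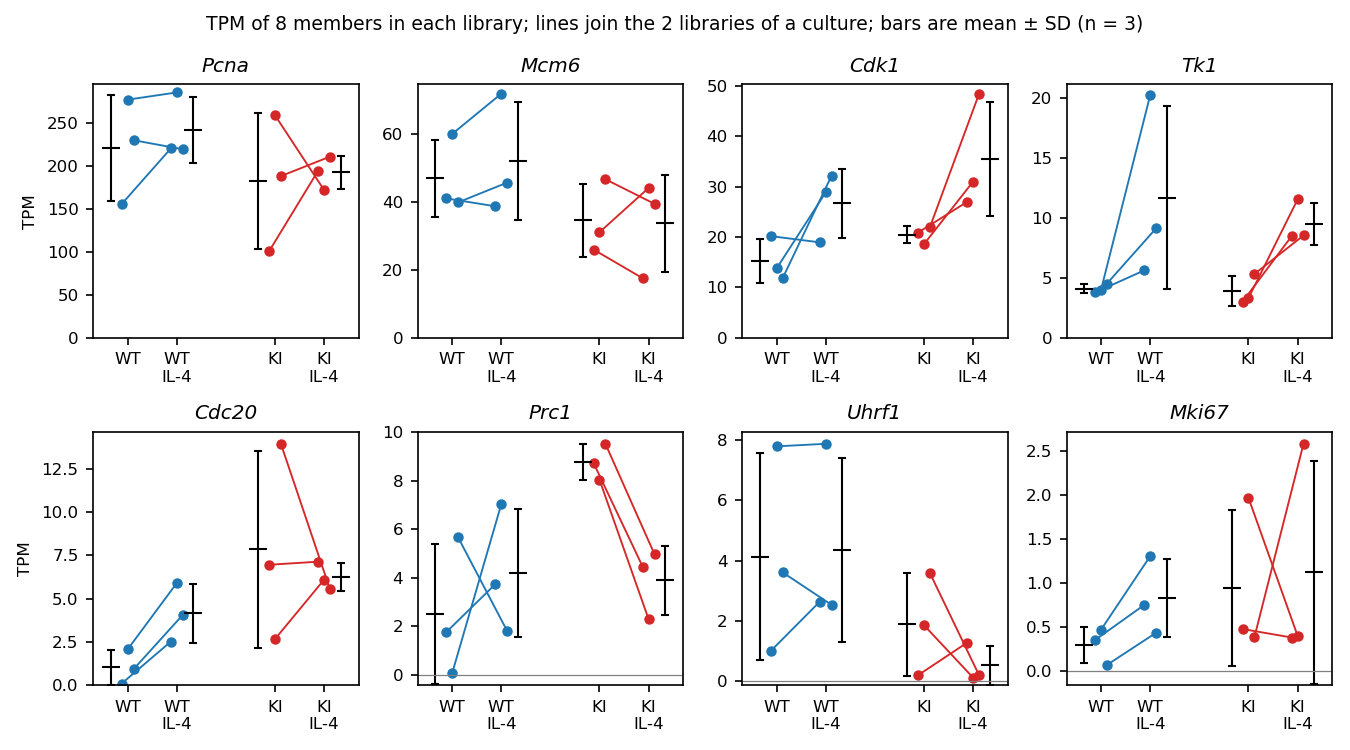
TPM (vertical axis) of 8 members in the 4 groups (horizontal axis), with a point for each library, a line joining the libraries of a culture (WT in blue, KI in red) and bars for the mean ± SD of 3 libraries. The *Tk1* lines all run upwards, from 4.109 to 11.67 TPM on average in WT and from 3.880 to 9.521 TPM in KI, whereas the lines of *Pcna*, *Mcm6*, *Uhrf1* and *Mki67* cross.

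*E2f1*, the transcription factor that turns on S-phase genes, was at 8.5, 13.7 and 13.2 in untreated WT, 9.98, 14.4 and 13.9 in WT with IL-4, 8.73, 5.4 and 15.2 in untreated KI, and 14.4, 12.5 and 8.39 in KI with IL-4. The groups overlapped, and the genotype difference was -0.22 (95% interval -0.834 to 0.385, limma adjusted p = 0.894). The factors of the mitotic programme were scarcer. *Foxm1* ranged from 0 to 5.690 TPM and *Mybl2*, which encodes B-Myb and was not tested, from 0.000045 to 3.907 TPM.

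All 7 cyclins and cyclin-dependent kinases were tested, and *Cdk1*, the kinase that drives entry into mitosis, was second to *Tk1* for IL-4. *Cdk1* was at 20.2, 13.8 and 11.8 in untreated WT and 18.9, 28.9 and 32.2 in WT with IL-4, and at 20.9, 18.6 and 21.9 in untreated KI and 27, 31 and 48.4 in KI with IL-4. It was higher with IL-4 in 5 of 6 cultures, T13 being the exception, and the KI libraries with IL-4 lay above all untreated libraries. The IL-4 difference was 0.75 (SE 0.218, 95% interval 0.277 to 1.22), and the test together with the interaction gave an unadjusted p of 0.0145 and a limma adjusted p of 0.402, and the genotype difference was 0.41 (95% interval -0.0587 to 0.879, limma adjusted p = 0.568).

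The cyclin partners of *Cdk1* were less abundant. *Ccnb1*, which encodes cyclin B1, was at 1.55, 8.08 and 3.44 in untreated WT, 4.48, 6.74 and 6.56 in WT with IL-4, 0, 6.63 and 12.5 in untreated KI, and 12.9, 7.5 and 0.0716 in KI with IL-4. *Ccna2*, which encodes cyclin A2, was at 1.34, 11.5 and 1.68 in untreated WT, 4.13, 12.1 and 1.57 in WT with IL-4, 2.62, 12.1 and 0.85 in untreated KI, and 1.12, 3.33 and 3.37 in KI with IL-4. Both varied more within a group than between groups, and their IL-4 differences were 0.32 (95% interval -1.19 to 1.84) and 0.00 (-1.28 to 1.29). *Cdk2*, the S-phase kinase, was steadier, at 16.4, 20.1 and 9.06 in untreated WT, 16.4, 23.3 and 16 in WT with IL-4, 16.1, 11.2 and 27.4 in untreated KI, and 20, 14.6 and 12.6 in KI with IL-4. Its genotype difference was 0.00 (95% interval -0.587 to 0.579, limma adjusted p = 0.900). *Ccne1*, *Ccne2* and *Ccnb2*, further cyclins, ranged from 0 to 9.316, from 0.1859 to 6.842 and from 0 to 10.270 TPM, and none had an unadjusted p under 0.05.

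The mitotic kinases and checkpoint genes were near the limit of what these libraries show, with 2 of 5 tested and 12 of 60 values listed at 0. *Aurka*, the centrosomal Aurora kinase, was at 0.929, 6.29 and 4.87 in untreated WT, 2.3, 5.76 and 6.15 in WT with IL-4, 9.02, 2.54 and 9.34 in untreated KI, and 0, 4.01 and 2 in KI with IL-4. The differences were -0.21 for genotype (95% interval -1.30 to 0.886, limma adjusted p = 0.576) and -0.61 for IL-4 (-1.70 to 0.485, limma adjusted p = 0.872). The low untreated value in T13 and the 0 in T15 with IL-4 lay apart from the rest. *Aurkb*, the kinase of the passenger complex, ranged from 0 to 7.980 TPM. *Plk1*, another mitotic kinase, and the checkpoint genes *Bub1* and *Bub1b* were outside the reported fit and reached 12.220, 2.224 and 6.272 TPM at most. With no expression filter *Bub1b* had a genotype difference of -1.16 (95% interval -2.245 to -0.0708, limma adjusted p = 0.724).

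*Cdc20*, one of 3 anaphase control genes, was the member closest to the threshold for genotype. Its product activates the anaphase-promoting complex once the checkpoint is satisfied. *Cdc20* was at 0.0876, 2.06 and 0.91 in untreated WT, 2.51, 5.89 and 4.05 in WT with IL-4, 6.95, 2.66 and 13.9 in untreated KI, and 7.13, 6.09 and 5.53 in KI with IL-4. Every untreated KI library lay above every untreated WT library, while with IL-4 the T33 value of WT exceeded the T32 value of KI. The averaged genotype difference was 1.29 (SE 0.414, 95% interval 0.398 to 2.17), and the test together with the interaction gave an unadjusted p of 0.0105 and a limma adjusted p of 0.160. It was 2.03 in the untreated libraries (adjusted p = 0.110) and 0.54 in the IL-4 libraries (adjusted p = 0.824), and the interaction of -1.49 did not pass the test (limma adjusted p = 1.0).

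Over the alternative settings the adjusted p of *Cdc20* came closest to the threshold, at 0.0816, without culture T22, and it was 0.357 without the astrocyte-rich culture T15, with differences of 1.56 and 1.23. With 0.1 instead of 1 added to TPM the *Cdc20* difference was 1.89. *Cdca3*, which encodes an adaptor for the destruction of the mitotic brake Wee1, was at 4.17, 11.6 and 3.45 in untreated WT, 2.87, 5.07 and 4.66 in WT with IL-4, 5.69, 0.408 and 0 in untreated KI, and 2.6, 4.41 and 2.79 in KI with IL-4. The untreated T22 and T32 libraries lay below every WT library, and T15 overlapped with WT. The genotype difference was -0.96 (95% interval -2.00 to 0.0742, limma adjusted p = 0.389). *Ube2c*, the ubiquitin-conjugating enzyme of the same complex, ranged from 2.233 to 14.960 TPM, with a genotype difference of 0.51 (95% interval -0.377 to 1.39, limma adjusted p = 0.775).

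*Cenpa*, the histone variant that marks centromeres, was the most abundant gene of the kinetochore and passenger complex. It was at 18.6, 9.37 and 4.9 in untreated WT, 10.2, 28.2 and 20 in WT with IL-4, 14.5, 9.02 and 16 in untreated KI, and 14.5, 19.6 and 23.6 in KI with IL-4. It was higher with IL-4 in 4 of 6 cultures, with a difference of 0.68 (95% interval -0.0274 to 1.39, limma adjusted p = 0.885). *Birc5*, which encodes survivin of the passenger complex, was at 1.28, 1.9 and 7.86 in untreated WT, 6.83, 19.8 and 4.81 in WT with IL-4, 2.64, 4.75 and 12 in untreated KI, and 2.98, 7.7 and 4.79 in KI with IL-4. The T43 and T32 cultures, with the highest untreated values of their genotype, were the ones that were lower with IL-4, and the IL-4 difference was 0.60 (95% interval -0.423 to 1.61). *Cdca8*, which encodes borealin, ranged from 3.873 to 12.790 TPM, with an IL-4 difference of 0.25 (95% interval -0.532 to 1.02). *Cenpe* and *Cenpf*, kinetochore proteins, were not tested and reached 3.109 and 2.595 TPM at most.

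Among the spindle and cytokinesis genes, *Prc1*, the bundler of central spindle microtubules, was second to *Cdc20* for genotype. *Prc1* was at 1.76, 0.0576 and 5.68 in untreated WT, 3.74, 7.03 and 1.81 in WT with IL-4, 8.74, 8.05 and 9.53 in untreated KI, and 4.46, 2.29 and 4.97 in KI with IL-4. The untreated KI libraries were close together and above every other library, and with IL-4 the genotypes overlapped. The averaged genotype difference was 0.93 (SE 0.451, 95% interval -0.0399 to 1.90), and the test together with the interaction gave an unadjusted p of 0.0369 and a limma adjusted p of 0.272. It was 1.86 in the untreated libraries (adjusted p = 0.174) and 0.00 in the IL-4 libraries (adjusted p = 1.0), and the interaction of -1.86 did not pass the test (limma adjusted p = 1.0). With 0.1 instead of 1 added to TPM the averaged difference was 1.46.

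*Kif23*, a motor of the central spindle, was at 3.25, 9.29 and 3.05 in untreated WT, 1.61, 2.64 and 7.74 in WT with IL-4, 0.0695, 3.38 and 2.27 in untreated KI, and 3.94, 5.96 and 5.51 in KI with IL-4. The genotypes overlapped in both treatments, and the genotype difference was -0.35 (95% interval -1.34 to 0.636, limma adjusted p = 0.543). *Tpx2*, which activates Aurora A on the spindle, was at 1.79, 2.97 and 1.91 in WT with IL-4 and 3.29, 4.03 and 7.79 in KI with IL-4, without overlap, whereas the untreated values of 1.79, 6.94 and 0 in WT and 1.33, 1.67 and 4.64 in KI overlapped. *Kif11*, *Kif20a* and *Nusap1*, further spindle genes, were outside the reported fit and reached 2.631, 5.935 and 11.370 TPM at most. With no expression filter *Kif20a* had an IL-4 difference of 0.89 (95% interval 0.0623 to 1.72, limma adjusted p = 0.867).

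For genotype, the question was whether cultures with the knock-in held more or less of the proliferation transcripts. Members stood on both sides of 0, and those nearest the threshold had opposite signs, with positive differences for *Cdc20* and *Prc1* and negative ones for *Uhrf1*, *Cdca3* and *Mcm6*. In the untreated libraries the KI values of 2 of 34 members (*Cdc20* and *Prc1*) all lay above the WT values, beside 13.6% of all genes, and those of 0 members all lay below, beside 4.55%. With IL-4, *Tyms* and *Tpx2* were higher without overlap, beside 12.7% of all genes, and *Pcna* and *Uhrf1* lower, beside 5.79%. Separation in the same direction in both treatments was found for 0 members, beside 4.94% of all genes.

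The median genotype difference of the members depended on which cultures were included. It was 0.181 without T33, -0.264 without T13 and 0.0021 without T15, and the SD between cultures of a genotype of the members' mean level was 0.329. Scaling moved it as well, to -0.247 with quantile normalization and -0.144 with median-ratio scaling, where the median over all genes moved from 0.129 to -0.0632 and -0.0102. In the untreated libraries alone it was 0.0997 beside 0.174 over all genes, and in the IL-4 libraries -0.118 beside 0.0924. Without T15, 0 of 34 members passed for genotype, beside 49 of all genes, and 3 members (8.82%) had an unadjusted p under 0.05, beside 12.5% of all genes.

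**Figure D3:**
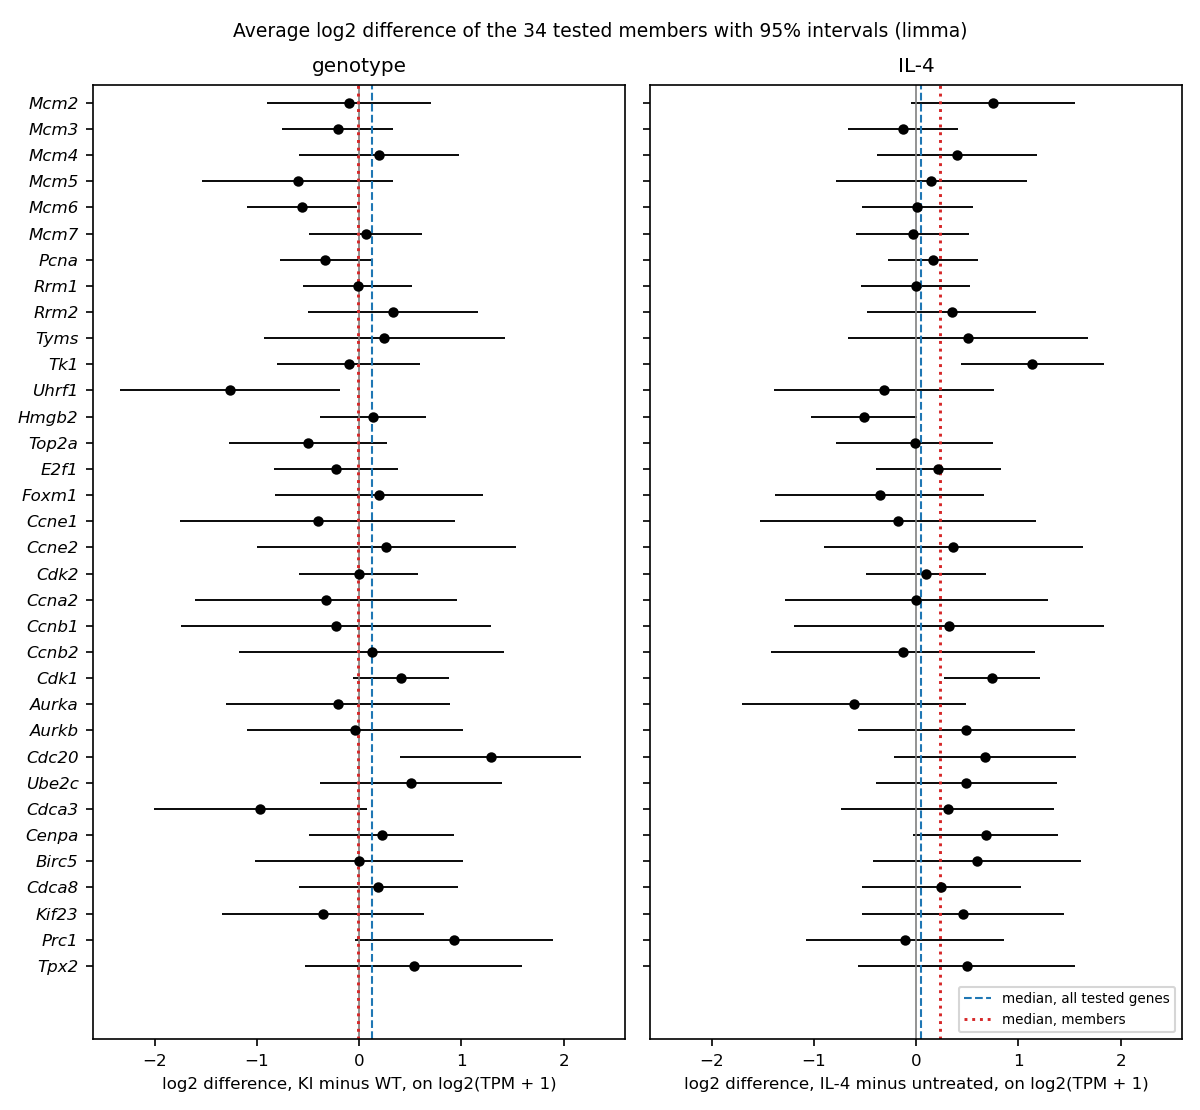
Average log2 difference (horizontal axes, on log2(TPM + 1)) of the 34 tested members (vertical axis) for genotype, KI minus WT, and for IL-4, IL-4 minus untreated, with 95% intervals from limma and the medians of the members and of all genes as dotted and dashed lines. The intervals of *Cdc20*, *Uhrf1* and *Mcm6* for genotype and of *Tk1* and *Cdk1* for IL-4 leave out 0 before adjustment, and those of the cyclins are among the widest.

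For IL-4, the question was whether the cytokine moved the proliferation transcripts. The tests did not pair the libraries of a culture, so the counts within each culture are given first. More members were higher than lower in 4 of 6 cultures, with 23 of 34 higher in T13 (53.4% of all genes were), 25 in T43 (62.5%), 24 in T15 (52.4%) and 23 in T22 (58.2%). In T33 16 of 34 members were higher (50.5% of all genes), and in T32 13 (40.3%). The 2 cultures with the highest untreated levels of these genes were thus the 2 in which fewer than 17 of the members were higher with IL-4. A culture with a high untreated value has by that alone a lower difference, so these are not separate observations.

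The median difference of the members was 0.336 in T13, -0.104 in T33, 0.566 in T43, 0.284 in T15, 0.343 in T22 and -0.336 in T32. In the contrasts within each genotype, taken from the fit over all libraries, it was 0.32 in WT, where 26 of 34 members were above 0. In KI it was 0.0899, where 19 were above 0. The medians over all genes were 0.0811 in WT and 0.011 in KI. The SD of the 6 medians by culture was 0.334, larger than the overall median of 0.231. The overall median was 0.0963 without T15, 0.119 without T43 and 0.0929 with quantile normalization. Without T15, 0 members passed for IL-4, beside 143 of all genes, and 3 (8.82%) had an unadjusted p under 0.05, beside 9.79% of all genes. A lower value with IL-4 in each of the 6 cultures was found for 0 members, beside 2.56% of all genes.

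The interaction asked whether the IL-4 difference depended on genotype. The 8 members with the smallest p were *Prc1* (-1.86), *Aurka* (-1.85), *Kif23* (1.65), *Tyms* (1.51), *Cdc20* (-1.49), *Birc5* (-1.49), *Cdca3* (1.37) and *Hmgb2* (-0.58), where a negative value means that the IL-4 difference was lower in KI than in WT. Each had a limma adjusted p of 1.0. Opposite directions in every WT and every KI culture were found for 0 members, beside 2.72% of all genes. The SE of these differences had a median of 0.826 over the members, so differences in response of several fold can be missed at this spread.

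The level of the list as a whole varied between cultures of the same genotype. The mean log2(TPM + 1) of the 34 tested members was 2.48, 3.50 and 2.75 in untreated WT, 2.83, 3.58 and 3.30 in WT with IL-4, 2.76, 2.92 and 3.31 in untreated KI, and 3.05, 3.22 and 3.03 in KI with IL-4. Culture T33 was highest and T13 lowest in both treatments, so WT held both ends of the range. Among the 6 untreated libraries, T32 held the highest value for 16 members and T33 for 12, so that these cultures led for 28 of 34 members, while they led for 22.8% and 15% of all genes. With IL-4, T33 led for 17 members and for 10.3% of all genes, and T13 was lowest for 15 members.

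The marker sums of the same libraries are set beside these levels. T33 had 201.6 TPM of summed astrocyte markers untreated and 174.8 TPM with IL-4, T32 had 573.0 and 618.8 TPM, and T15, with the highest sums, had member means of 2.76 and 3.05, inside the range of the others. Fibroblast and mural markers summed to 173.2 TPM in untreated T33 and to 1327.0 TPM in untreated T32, the lead cultures of each genotype. For genotype, 0 of 7 tested astrocyte markers (median difference 1.63), 1 of 6 oligodendrocyte lineage markers (1.15), 2 of 5 fibroblast and mural markers (0.85), 0 of 2 neuronal markers (1.29) and 0 of 1 endothelial markers (-0.18) were called. Of the 12 microglial markers 5 were called lower in KI (*Csf1r*, *Aif1*, *Itgam*, *Fcrls* and *C1qb*, median -0.66). Whether these markers bear on the levels of the cell division genes was not tested.

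**Figure D4:**
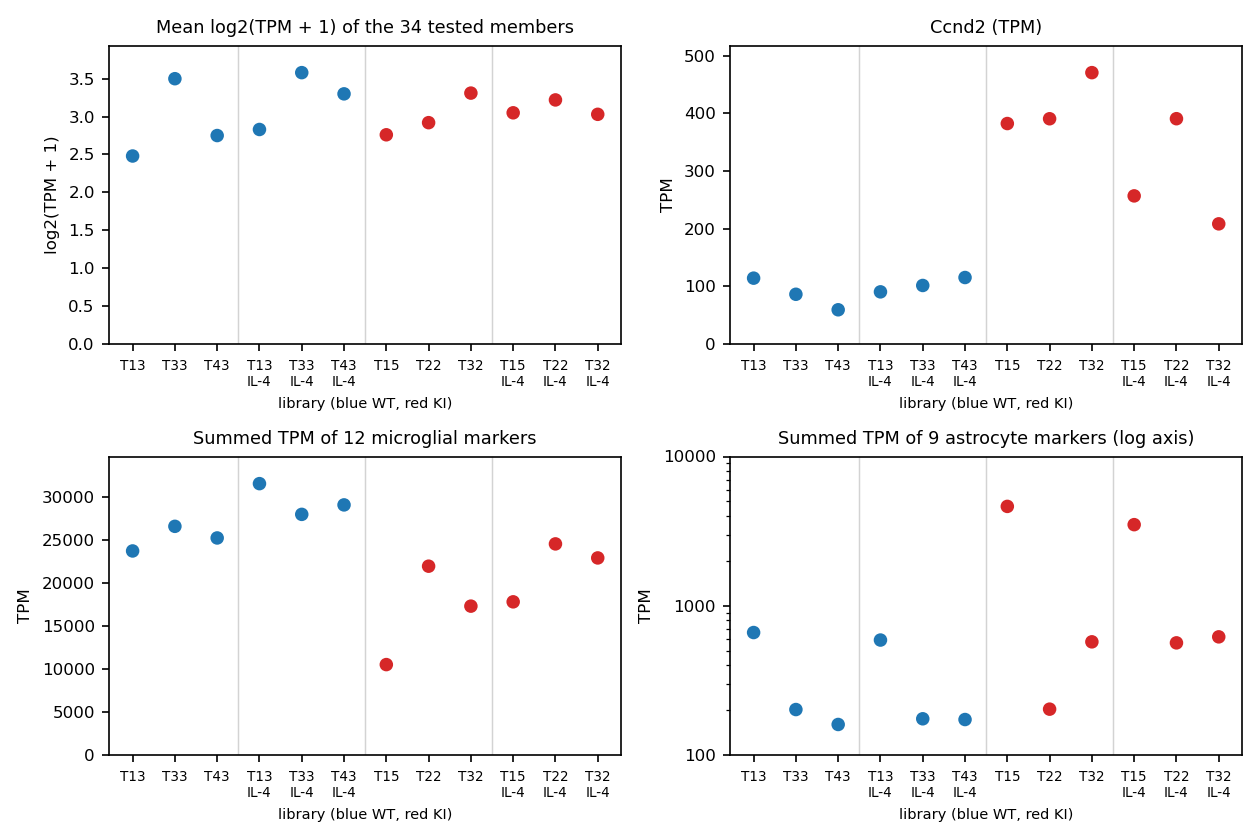
Values of each library (horizontal axes, WT in blue and KI in red): mean log2(TPM + 1) of the 34 tested members, TPM of *Ccnd2*, summed TPM of the 12 microglial markers, and summed TPM of the 9 astrocyte markers on a log axis. The member mean overlaps between the genotypes at 2.48 to 3.58, *Ccnd2* does not overlap (59.34 to 115.3 TPM in WT, 208.4 to 470.7 TPM in KI), and both T15 libraries stand apart in astrocyte markers.

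The wider machinery was examined with lists that held no member. Of 43 further replication genes 34 were tested and none was called for genotype or IL-4, with median differences of -0.05 and 0.17, and 2 and 3 genes had an unadjusted p under 0.05. Of 46 further mitotic genes 22 were tested and none was called, with medians of 0.19 and 0.07 and unadjusted counts of 1 and 0. Of 22 genes that restrain the cycle 21 were tested and none was called, with medians of 0.24 and 0.06 and unadjusted counts of 4 and 1. Over all genes 16.1% had such a p for genotype and 7.27% for IL-4. For the interaction none was called either. Its unadjusted counts were 4 of the 34 replication genes, 0 mitotic genes and 0 genes that restrain the cycle, beside 3.19% of all genes. The lowest adjusted p of these lists was 0.0596, for genotype in *Gadd45b*, a stress-induced inhibitor of Cdk1, which had a genotype difference of 1.63 on the log2 scale.

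Of the 5 D-type cyclins and their kinases, which link growth signals to the cycle, *Ccnd2* was the one called. Its libraries held 114.2, 86.22 and 59.34 TPM in untreated WT, 90.43, 101.5 and 115.3 TPM in WT with IL-4, 382.4, 390.7 and 470.7 TPM in untreated KI, and 256.9, 390.8 and 208.4 TPM in KI with IL-4. Every KI library lay above every WT library, with a genotype difference of 1.86 (SE 0.178, limma adjusted p = 0.000788). *Ccnd1*, *Ccnd3*, *Cdk4* and *Cdk6* were not called (adjusted p of 0.983, 0.393, 0.356 and 0.922), and the higher *Ccnd2* stood beside 0 of 34 members called.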

How the data were processed

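Poly(A)-primed SMART-Seq v4 libraries of 12 samples were analysed. Trim Galore was used for trimming and Salmon for quantification on ENSEMBL GRCm38, and the authors deposited TPM per gene, summarised with tximport. Versions of these 3 tools are not given in the sources used here. The methods state a nominal number of reads, but TPM holds no read counts, so the reads per library and gene and their counting error are unknown, and limma 3.58.1 in R 4.3.3 on log2(TPM + 1) took the place of the count-based likelihood-ratio test of the study.

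Genes with a mean above 1.5 were tested. Coefficients were genotype, IL-4 and their interaction, a main effect was tested together with the interaction, and p-values were adjusted by Benjamini-Hochberg over 11204 genes at a threshold of 0.05. The fit was tested on simulated data. The annotation named 48350 of 48623 identifiers, and promoters were read from RefSeq on GRCm38.p6. Plots were drawn with matplotlib 3.10.9 in Python 3.11.15.

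The reported tests did not pair libraries. The culture number in the names links the untreated and IL-4 libraries of a culture for the replicate block alternative, and the deviations of a culture's libraries from their group means correlated by 0.0792 to 0.378. The reported fit counted the 12 libraries as independent, so the untreated and IL-4 libraries of a culture counted as separate replicates of its genotype. Its p-values therefore measure the spread between libraries of a group, although only 3 cultures of each genotype were compared. With culture as replicate block the genotype count over all genes fell from 185 to 77. Alternatives were pseudocount, filter, scaling, variance trend, culture as replicate block, single contrasts and leaving out each culture. The members and lists were chosen with earlier results of these data known. Named were all members past the threshold or otherwise the 8 with the smallest p of each comparison, a fixed set of S-phase and mitotic genes, and members past the threshold of the wider lists. *Gadd45b* was named after its values were seen.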

Additional observations from a re-analysis of the deposited data

How the results depend on the processing

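No member passed the threshold in any of the 3 comparisons under any alternative tried, and of 1439 member differences compared with the reported ones 143 had the other sign, none of them past the threshold. With culture as replicate block, 0 members passed in each comparison, and the lowest adjusted p was 0.2 (genotype), 0.321 (IL-4) and 0.969 (interaction).

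The counts over all genes, which are the background for the members, moved more. For genotype the 185 genes became 16 with no expression filter, 26 with no variance trend, 77 with the replicate block and 575 with the test of a single coefficient. The contrast within the untreated libraries gave 102 and that within the IL-4 libraries 2, with the spread estimated over all 12 libraries. The genotype counts ranged from 3 without T33 to 191 without T13, with 16 without T43, 49 without T15 and 99 without T32. For IL-4 the 100 genes became 61 with no expression filter, 50 with no variance trend, 240 with the replicate block and 151 with the test of a single coefficient. The contrasts within WT and within KI, again with the spread of all libraries, gave 64 and 45. The IL-4 counts ranged from 46 without T43 to 143 without T15, with 51 without T33, 56 without T13 and 65 without T32. For the interaction 4 genes passed with no expression filter and 0 under the other alternatives. The split of higher and lower genotype calls was 145 and 40 as reported, 90 and 56 with quantile normalization and 106 and 73 with median-ratio scaling. The cause of these changes was not tested.

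The low levels, the unknown reads per gene and 3 cultures for each genotype limit what can be seen in these genes.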
